A study of Mus musculus with 5 samples.

Results

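Interferon-stimulated genes were followed across the cell classes of mouse mammary tumours that grew under a progesterone or a placebo pellet. The set was a list of 33 gene symbols that cells are known to induce when interferon reaches them. Of the 33, 32 matched a symbol among the 24860 genes of the deposited matrices, and Rnf213 was not matched and was not analysed here. Unique molecular identifiers (UMIs, tags that count single RNA molecules) of the 32 members were summed for each cell class in each of the 5 libraries. Levels are given as CPM, the usual unit in which a gene's UMIs are scaled to the UMIs of all genes in that class and library.

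The tumours grew from SSM2 cells, 100000 of which had been placed in a mammary gland on the left side of mice 10 to 12 weeks old. The mice carried a progesterone pellet of 60 mg with a 60-day release, or a placebo pellet of the same design. SSM2 is known as a hormone receptor-positive mouse mammary tumour line, so all tumours of both groups share 1 line and its genotype. Progesterone 1 and Placebo 1 made up batch 1, and Progesterone 2, Progesterone 3 and Placebo 2 made up batch 2, per the sample titles. Nothing in the labels says that each library is a different animal, and the file names of Progesterone 2 and 3 carry 1 common identifier with an added L or R. The p-values below therefore describe spread among libraries, part of which may be technical. In epithelial cells, fibroblasts and plasmacytoid dendritic cells, each with 1 placebo library, that spread is the one between Progesterone 2 and 3 alone. No spread among placebo libraries enters there.

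Interferons are secreted proteins that warn cells of infection or damage. Type I interferons such as interferon beta (Ifnb1) bind the receptor made of Ifnar1 and Ifnar2, and the kinases Jak1 and Tyk2 then activate a complex that holds STAT2 and IRF9 and binds the interferon-stimulated response element (ISRE) in target promoters. Interferon gamma binds Ifngr1 and Ifngr2 and acts mainly at gamma-activated sites (GAS). The induced genes include transcription factors that amplify the response, sensors of foreign RNA and DNA, and effectors that block viral replication. In tumours, macrophages and dendritic cells are known both to make interferons and to respond to them.

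The ISRE core, searched as GAAA, any 2 bases and GAAA on both strands from 250 bases before to 50 bases after each annotated start, was found in 16 of the 24 members with an entry among the RefSeq promoters (66.7%), against 3.99% of the 27025 genes in that table. The GAS letters, TTC, any 3 bases and GAA, were found in 5 of the 24 (20.8%), against 9.55% of all genes. The sequences below are the 150 bases before the start, 5′ to 3′ on the gene's strand (RefSeq, build GRCm38.p6), of members on which the results turn. Capitals mark the ISRE core, overlapping matches run together, and in Irf1 capitals mark the GAS match instead. A core on the other strand appears as TTTC, any 2 bases and TTTC.
Isg15, chr4:156200819-156200968, minus strand: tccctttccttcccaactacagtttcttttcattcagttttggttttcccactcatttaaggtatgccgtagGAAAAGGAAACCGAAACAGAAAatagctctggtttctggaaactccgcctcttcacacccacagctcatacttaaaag
Oas1a, chr5:120907526-120907675, minus strand: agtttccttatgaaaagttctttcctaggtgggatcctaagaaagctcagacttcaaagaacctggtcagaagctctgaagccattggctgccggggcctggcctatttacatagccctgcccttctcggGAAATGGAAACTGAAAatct
Oas3, chr5:120777660-120777809, minus strand: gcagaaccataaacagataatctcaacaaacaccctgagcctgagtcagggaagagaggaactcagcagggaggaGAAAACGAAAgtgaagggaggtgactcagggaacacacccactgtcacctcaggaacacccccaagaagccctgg
Ifit1, chr19:34640739-34640888, plus strand: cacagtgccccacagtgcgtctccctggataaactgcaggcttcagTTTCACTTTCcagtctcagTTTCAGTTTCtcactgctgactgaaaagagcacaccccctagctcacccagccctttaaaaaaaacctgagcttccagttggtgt
Rsad2, chr12:26456453-26456602, minus strand: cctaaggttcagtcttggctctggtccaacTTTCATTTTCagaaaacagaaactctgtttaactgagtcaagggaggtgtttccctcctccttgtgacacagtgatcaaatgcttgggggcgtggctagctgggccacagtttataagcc
Bst2, chr8:71537473-71537622, minus strand: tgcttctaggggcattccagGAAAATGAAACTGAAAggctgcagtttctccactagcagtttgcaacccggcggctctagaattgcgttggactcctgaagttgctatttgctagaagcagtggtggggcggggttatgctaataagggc
Irf1, chr11:53769864-53770013, plus strand: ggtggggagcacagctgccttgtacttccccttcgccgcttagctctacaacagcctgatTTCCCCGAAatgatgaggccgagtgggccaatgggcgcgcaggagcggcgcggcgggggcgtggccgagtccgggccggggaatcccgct
In Isg15 the 3 overlapping matches began 78, 72 and 66 bases before the start, in Ifit1 the nearer of 2 matches began 85 bases before it, and in Oas1a 2 overlapping matches began 20 and 14 bases before it. The windows of Irf7, Irf9, Irf1, Ifi44, Ifit2, Oasl1, Oasl2 and Xaf1 held no ISRE core letters. These matches describe sequence only and were not related to binding.

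The deposited libraries held 23409215 to 204786073 UMIs over 2241 to 5857 barcodes, and 2192 to 5583 cells were kept per library. Classes were named from marker genes, so each name states marker expression and not lineage, and macrophage-like and monocyte-like clusters formed 1 class. Members and other interferon genes were left out of the genes used for clustering. Placebo 1 stood apart from the other libraries, with 4061 T cells, 15 macrophages and 2 epithelial cells. Pairs of libraries shared 2 to 12 barcodes, at most 0.312% of the smaller library. Epithelial cells numbered 57, 2963 and 3042 in Progesterone 1, 2 and 3, and 2888 in Placebo 2. Macrophages numbered 282, 946 and 574 in Progesterone 1, 2 and 3, against 15 and 606 in Placebo 1 and 2. All 10 epithelial markers and all 10 macrophage markers were detected in their own class in every library in which that class was compared, and all 8 markers of plasmacytoid dendritic cells (pDCs) were detected in that class. From 309 to 1475 cells per library stayed unnamed.

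The summed members were highest in pDCs where that class could be measured, mostly through Bst2, which is itself a marker of pDCs, and they were low in the tumour epithelium. pDCs, the cells best known for making type I interferon, held a summed member level of 3048, 3516 and 3976 CPM in Progesterone 1, 2 and 3, and 4657 CPM in Placebo 2. Macrophages held 2584, 1300 and 1370 CPM in Progesterone 1, 2 and 3, against 6294 CPM in Placebo 1 and 1713 CPM in Placebo 2. Epithelial cells held 363, 341 and 368 CPM in Progesterone 1, 2 and 3, and 441 CPM in Placebo 2. Bst2 made up 60.1%, 76.5% and 82.3% of the pDC sum in Progesterone 1, 2 and 3 and 68.4% in Placebo 2. Without Bst2 pDCs held 1216, 825 and 705 CPM in the progesterone libraries and 1472 CPM in Placebo 2. Macrophages without Bst2 held 2401, 1101 and 1170.2 CPM in the progesterone libraries, against 5904 and 1457 CPM in Placebo 1 and 2. Macrophages were then above pDCs in the 3 progesterone libraries, and the 2 classes lay close to each other in Placebo 2. The epithelial sums lay within a narrow band in all 4 libraries, while the macrophage sums differed more between the batches than between the treatments of batch 2. Because the classes come from clustering these same cells, levels between classes are a description with no test.

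T cells held intermediate sums of 1058, 817 and 840 CPM in Progesterone 1, 2 and 3, against 697 CPM in Placebo 1 and 846 CPM in Placebo 2. Neutrophils held 1824, 1192 and 683 CPM in Progesterone 1, 2 and 3, and 1503 CPM in Placebo 1. Fibroblasts held 469 and 576 CPM in Progesterone 2 and 3, and 653 CPM in Placebo 2. B cells, at 483 and 278 CPM in Progesterone 1 and 2 and 368 and 397 CPM in Placebo 1 and 2, were near fibroblasts and epithelium, with Progesterone 2 below every value of either. NK cells held 855 CPM in Progesterone 1, against 674 and 573 CPM in Placebo 1 and 2. Mast cells held 1644 CPM in Progesterone 1, against 2840 and 2072 CPM in Placebo 1 and 2. Endothelial cells held 793 CPM in Progesterone 1, against 2651 and 1061 CPM in Placebo 1 and 2, and conventional dendritic cells 963 CPM in Progesterone 2 and 1241 CPM in Placebo 2. In the sums of mast, endothelial and NK cells, progesterone is represented by Progesterone 1 alone, and the mast cluster was also led by Hba-a2, Alas2 and Jchain, which are genes of red blood cells and plasma cells.

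**Figure D1:**
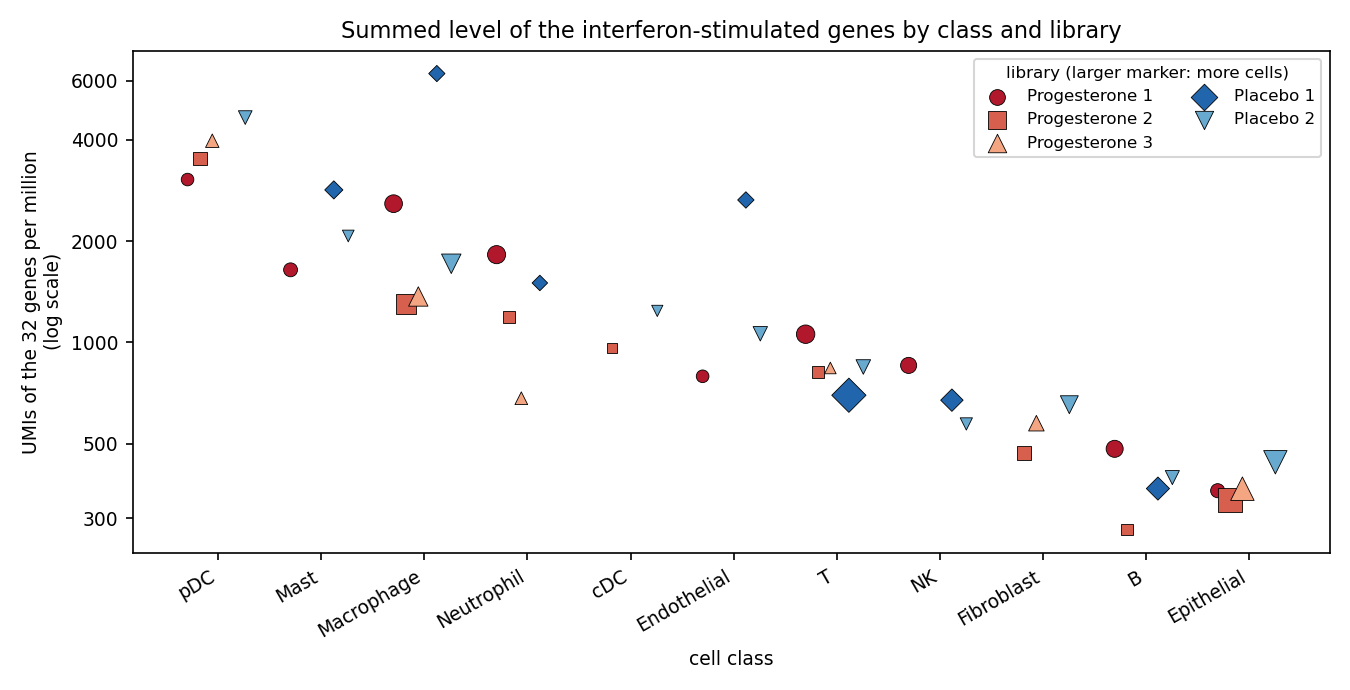
Level of the interferon-stimulated genes in each cell class, in CPM on a log axis, with 1 point per library (progesterone libraries left of placebo libraries) for classes with at least 10 cells in the library. The pDC points lie at 3048 to 4657 CPM, of which Bst2 is at least 60.1%, and the epithelial points at 341 to 441 CPM.

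Within the same library, 31, 28 and 28 of the 32 members were lower in epithelial cells than in macrophages in Progesterone 1, 2 and 3, and 28 of 32 in Placebo 2. The median log2 ratio of epithelial over macrophage level was -3.11, -1.80 and -1.91 in Progesterone 1, 2 and 3 and -1.44 in Placebo 2, with 1 CPM added to each level. The exceptions were Ddx58, which encodes the RNA sensor RIG-I, the guanylate-binding GTPase Gbp2, the signalling partner Stat2 and the ISG15 protease Usp18, of which only Gbp2 was an exception in Progesterone 1. Macrophages were the highest class for the RNA sensor Ifih1, for Ifit3 and for Oas1a in 5 of 5 libraries. The pDCs were highest for Stat2, Mx2, Bst2 and Trim30a in 4 libraries. In all, macrophages were highest for 11, 11 and 13 members in Progesterone 1, 2 and 3 and for 25 and 11 in Placebo 1 and 2, against 5, 4 and 7 members for pDCs in Progesterone 1, 2 and 3 and 5 in Placebo 2. Neutrophils were highest for 13, 9 and 4 members in Progesterone 1, 2 and 3 and for 1 in Placebo 1, so in Progesterone 1 they led macrophages. In Progesterone 2 and 3 these neutrophils numbered 26 and 29. There Irf7, Irf9, Ifit1, Oasl2 and Gbp2 led on 3, 3, 2, 1 and 4 UMIs in Progesterone 2. In Progesterone 3, Oas2 and Usp18 led on 1 UMI each.

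Free RNA adds UMIs to droplets of other cells, so marker genes of other classes were measured in each class. Macrophage markers stood in epithelial cells at 0.659%, 0.167% and 0.107% of their macrophage level in Progesterone 1, 2 and 3 and at 0.148% in Placebo 2. At that share macrophage RNA would amount to at least 50% of the epithelial level of Ifi27l2a in all progesterone libraries, of Ifi44 in Progesterone 2, and of Ifi204, Ifit2, Oasl1 and Rsad2 in Progesterone 1. In Placebo 2 this applied to 0 of 32 members. Epithelial markers stood in macrophages at 0.617%, 4.03% and 3.39% of their epithelial level in Progesterone 1, 2 and 3 and at 3.81% in Placebo 2, and at that share epithelial RNA would amount to 50% of the macrophage level for 0 of 32 members.

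Member UMIs were spread over many cells of a class. After each cell was thinned to 2000 UMIs, 55.3%, 48.8% and 51.3% of epithelial cells in Progesterone 1, 2 and 3 and 58.2% in Placebo 2 had a member UMI, against 87.7%, 99.1%, 99.4% and 99.3% before thinning. In macrophages the thinned shares were 88.6%, 78.8% and 76.7% in Progesterone 1, 2 and 3 and 83.7% in Placebo 2. The 10% of macrophages richest in members held 39.6%, 38.5% and 43.2% of all member UMIs in Progesterone 1, 2 and 3 and 38.9% in Placebo 2. In pDCs the richest 10% of cells held 28.0%, 21.5% and 21.6% in Progesterone 1, 2 and 3 and 21.1% in Placebo 2. Neutrophils were the most uneven of these classes, with 60.0%, 57.1% and 44.8% in the richest 10% of cells in Progesterone 1, 2 and 3.

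Macrophages, T cells and B cells held both treatments in both batches, and in macrophages most members were lower with progesterone. Progesterone was compared with placebo by edgeR's quasi-likelihood test on the summed UMIs, with batch in the model and Benjamini-Hochberg adjustment over all genes tested in the class. All 32 members were tested, 6 fell, 0 rose and 26 did not pass an adjusted p of 0.05, where 0.737% of the 11807 genes tested fell and 0.576% rose (1.31% in either direction). By DESeq2 5 members fell and 0 rose, and 17 members had an unadjusted edgeR p under 0.05. The count was 0 without batch in the model. Without Progesterone 2 or without Progesterone 3 it was 3, all lower, where 0.264% and 0.399% of genes fell and 0.413% and 0.382% rose. Without Placebo 2 it was 20, all lower, where 2.64% of genes fell and 4.31% rose. Without Placebo 1 it was 18, 14 lower and 4 higher, where 9.78% fell and 8.52% rose, and without Progesterone 1 it was 16, 12 lower and 4 higher, where 8.84% fell and 7.71% rose. Irf7 and Ifi27l2a passed in each of these fits that kept batch, and with Progesterone 2 and 3 summed as 1 library the calls of Ddx58, Oas1a, Oas3 and Oasl2 ended. The median log2 ratio of progesterone over placebo was -0.65 over the members and 0.04 over all genes. The 6 that fell were Irf7, Ifi27l2a, Ddx58, Oas1a, Oas3 and Oasl2, so the calls sat with 1 regulator, 1 of 3 RNA sensors, 3 of 5 genes of the oligoadenylate synthetase (OAS) family and 1 small membrane protein.

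Irf7, the transcription factor that amplifies type I interferon production (chr7:141262706-141266481, minus strand, GRCm38), had 77.2, 19.6 and 16.1 CPM in Progesterone 1, 2 and 3, against 237 CPM in Placebo 1 and 54.0 CPM in Placebo 2. Each progesterone library was below the placebo library of its own batch, while across batches Progesterone 1 lay above Placebo 2. The log2 ratio was -1.58 (SE 0.19, edgeR adjusted p = 0.0033). Ifi27l2a, which encodes a small interferon-induced membrane protein, had 779, 298 and 233 CPM in Progesterone 1, 2 and 3, against 2116 and 542 CPM in Placebo 1 and 2. Again each library was lower than the placebo of its batch, and the log2 ratio was -1.18 (SE 0.19, edgeR adjusted p = 0.00811).

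The OAS enzymes make a second messenger from ATP when they meet double-stranded RNA, which activates RNase L. Oas1a had 36.4, 12.0 and 11.4 CPM in Progesterone 1, 2 and 3, against 93.4 and 22.6 CPM in Placebo 1 and 2 (log2 ratio -1.05, SE 0.23, edgeR adjusted p = 0.0388). Oas3 had 17.9, 3.37 and 2.76 CPM in the progesterone libraries, against 40.0 and 9.03 CPM in Placebo 1 and 2 (-1.38, SE 0.31, edgeR adjusted p = 0.046). Oasl2, a relative with a ubiquitin-like end, had 24.6, 7.99 and 9.34 CPM in the progesterone libraries, against 83.4 and 16.3 CPM in Placebo 1 and 2 (-1.17, SE 0.26, edgeR adjusted p = 0.0487). All 3 were lower within each batch, and Progesterone 1 lay above Placebo 2 for each. Transcripts of Oas1a and its neighbour Oas1g are 97.5% identical over 1860 aligned bases, so reads may be shared and the value of Oas1a is uncertain. Ddx58, which encodes RIG-I, had 29.3, 11.6 and 11.2 CPM in the progesterone libraries, against 73.4 and 22.8 CPM in Placebo 1 and 2 (-1.07, SE 0.23, edgeR adjusted p = 0.0385).

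The other named members did not pass the test in macrophages as a class. Isg15, the ubiquitin-like modifier, had 97.8, 61.9 and 68.9 CPM in Progesterone 1, 2 and 3, against 274 and 54.7 CPM in Placebo 1 and 2 (log2 ratio -0.42, SE 0.45, edgeR adjusted p = 0.743), so it was lower in batch 1 and higher in batch 2. Bst2, the tetherin that holds budding virus at the cell surface, had 183, 198 and 199.7 CPM in the progesterone libraries, against 390.5 and 256 CPM in Placebo 1 and 2. Ifit3, of the family of interferon-induced IFIT proteins, had 31.9, 7.91 and 10.0 CPM in the progesterone libraries, against 56.7 and 15.0 CPM in Placebo 1 and 2. Both were below the placebo of their batch in each library, and Bst2 did not overlap between the groups at all, with edgeR adjusted p = 0.177 for Bst2 and 0.165 for Ifit3. Transcripts of Ifit3 and Ifit3b are 97.8% identical over 1700 aligned bases, so the split of their reads is uncertain.

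The genes of the transcription factor complex did not pass the test. Stat2 had 41.3, 22.3 and 22.1 CPM in Progesterone 1, 2 and 3, against 107 and 18.2 CPM in Placebo 1 and 2, and Irf9 had 45.1, 24.5 and 23.0 CPM, against 76.8 and 29.5 CPM. Irf1, a factor induced mainly by interferon gamma, had 74.2, 76.9 and 93.7 CPM, against 150.2 and 67.2 CPM. For Stat2, Irf9 and Irf1 the edgeR adjusted p was 0.821, 0.423 and 0.903, and all 3 overlapped between the groups. Within batches Irf9 was lower in every pair, while Stat2 and Irf1 were lower in batch 1 and higher in batch 2.

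Within batches the lean to lower levels was most complete in batch 1. There 32 of 32 members were lower in Progesterone 1 than in Placebo 1, as were 40.0% of all genes tested, with a median log2 ratio of -1.36 over the members and 0.22 over all genes, but Placebo 1 is represented by 15 macrophages. In batch 2, 23 of 32 members were lower in Progesterone 2 than in Placebo 2 (median -0.55, all genes -0.01), as were 51.2% of all genes, and 19 of 32 in Progesterone 3 (median -0.38, all genes -0.02), as were 51.6% of all genes. In all, 19 members were lower in every pair and 0 were higher in every pair, against 18.6% and 25.1% of all genes, and both pairs of batch 2 share Placebo 2.

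Some members had opposite signs in the batches. Ifih1, which encodes the RNA sensor MDA5, had 73.5, 133 and 134 CPM in Progesterone 1, 2 and 3, against 137 CPM in Placebo 1 and 55.9 CPM in Placebo 2. Within batches its log2 ratio was -0.89 for Progesterone 1 and 1.24 for both Progesterone 2 and Progesterone 3. The guanylate-binding proteins, GTPases of the interferon gamma response, had the same signs, with log2 ratios of -2.71, 0.70 and 0.89 for Gbp2, -1.63, 1.29 and 1.51 for Gbp3 and -1.76, 1.46 and 1.92 for Gbp5. Gbp2 itself had 8.84, 14.0 and 16.1 CPM in the progesterone libraries, against 63.4 CPM in Placebo 1 and 8.23 CPM in Placebo 2. With batch 2 alone, edgeR gave 13 members lower and these 4 higher, where 9.58% of all genes were lower and 8.13% higher.

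**Figure D2:**
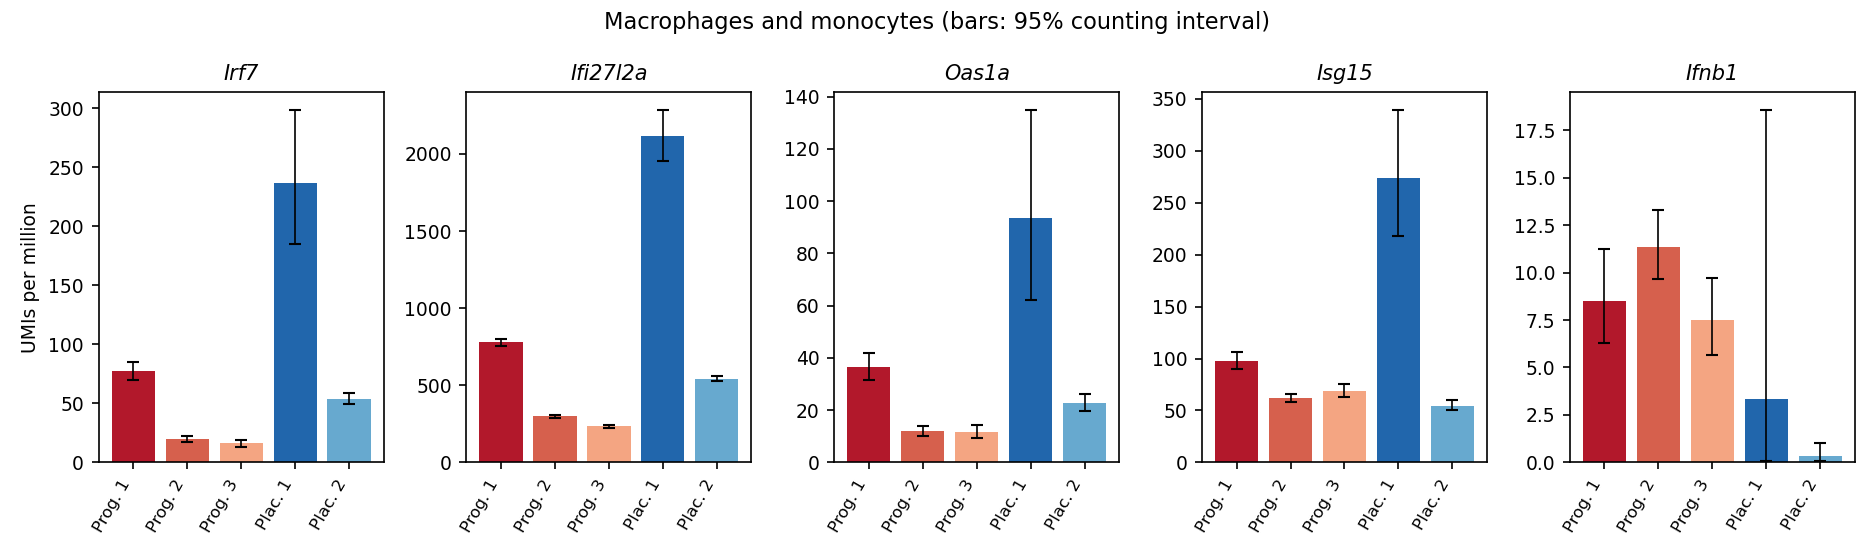
CPM of Irf7, Ifi27l2a, Oas1a, Isg15 and Ifnb1 in macrophages, with 1 bar per library, progesterone left of placebo, and 95% counting intervals. Irf7 is lower in each progesterone library than in the placebo library of its batch, at 77.2 against 237 CPM in batch 1 and at 19.6 and 16.1 against 54.0 CPM in batch 2.

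The makeup of the macrophage class differed between libraries as well. The summed level of 6 monocyte markers, all detected, was 1984, 314 and 395 CPM in Progesterone 1, 2 and 3, against 5513 CPM in Placebo 1 and 854 CPM in Placebo 2, and that of 10 macrophage markers was 13230, 33407 and 30922 CPM, against 4395 and 22422 CPM. The members were also higher in the monocyte-like cluster led by Chil3 and Ccr2 than in the cluster led by Apoe and the C1q genes in Progesterone 1 (3017 against 2035 CPM) and Progesterone 3 (2158 against 1351 CPM), and lower in Progesterone 2 (1079 against 1338 CPM) and Placebo 2 (1484 against 2244 CPM). The monocyte-like cluster held 14 of the 15 macrophages of Placebo 1, at 6194 CPM, and 171 of the 282 of Progesterone 1. The part of this makeup in the batch 1 ratios was not tested. Fits within single clusters, added after the data were seen, compare cells of the same cluster. How alike those cells were between libraries was not tested. In the Apoe and C1q cluster, with 107, 766 and 455 cells in Progesterone 1, 2 and 3 and 230 in Placebo 2, 16 of 32 members fell and 1 rose, where 1.91% of 11488 genes fell and 1.02% rose (2.92% in all). The median over the members was -0.79 and over all genes 0.01.

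In that cluster Irf7 had 57.3, 20.3 and 16.2 CPM in Progesterone 1, 2 and 3 and 102 CPM in Placebo 2 (log2 ratio -2.47, edgeR adjusted p = 3.96e-10). Bst2 had 202, 216 and 224 CPM in the progesterone libraries and 452 CPM in Placebo 2 (-1.04, edgeR adjusted p = 0.000192). For both genes every progesterone library was below Placebo 2. Others that fell there were Oas1a (-1.67), Ifit2 (-1.61), Ifit3 (-1.55) and Usp18 (-1.51), while Ifih1 rose (1.10, edgeR adjusted p = 0.000547). Isg15, at 66.99, 68.2 and 66.9 CPM in the progesterone libraries and 80.2 CPM in Placebo 2, did not pass (-0.25, edgeR adjusted p = 0.589). In the cluster led by Retnla and Mrc1, 3 of 22 tested members fell, Ifi204, Ifi44 and Rsad2, where 1.62% of genes fell and 0.789% rose (2.40% in all). There Ifi44 had 4.22 and 0 CPM in Progesterone 2 and 3 and 29.7 CPM in Placebo 2. Rsad2 had 2.11 and 0 CPM in Progesterone 2 and 3 and 30.8 CPM in Placebo 2. Both could pass the filter on low counts through Placebo 2 alone, so this count is no support. In the monocyte-like cluster, the only one with both batches on both sides, 1 of 30 fell, Ifi44 (-1.58, edgeR adjusted p = 0.0377), where 0.0425% of genes fell and 0.0566% rose. The fits of the Apoe and C1q cluster and of the Retnla cluster rest on Placebo 2 as the only placebo library.

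The gene of the ligand had more UMIs in macrophages with progesterone. It could pass the filter on low counts only through the progesterone libraries, so its test is no support. Ifnb1, the gene for interferon beta (chr4:88522025-88522774, minus strand, GRCm38), had 49, 155 and 57 UMIs in macrophages of Progesterone 1, 2 and 3, against 1 and 3 UMIs in Placebo 1 and 2. These correspond to 8.50, 11.4 and 7.50 CPM, against 3.34 and 0.343 CPM, so every progesterone library was above both placebo libraries. The log2 ratio was 4.36 (SE 0.67, edgeR adjusted p = 0.00697), and without Placebo 2 it was 1.38 and without Progesterone 2 it was 3.78, neither of which passed. Few cells carried these UMIs, 4, 33 and 17 macrophages in Progesterone 1, 2 and 3 (1.42%, 3.49% and 2.96%), against 1 macrophage each in Placebo 1 and 2 (6.67% and 0.165%). In Progesterone 1, 45 of the 49 UMIs lay in 1 cell. In Progesterone 2 and 3, 30 and 16 of the positive cells were in the Apoe and C1q cluster, where 0 of 230 cells of Placebo 2 had a UMI, which allows a share of up to 1.30%.

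Epithelial cells, set beside them as a class of higher depth, had an Ifnb1 UMI in 0, 0.0675% and 0.164% of cells in Progesterone 1, 2 and 3 and in 0.0346% in Placebo 2. The median UMIs per cell were 30711, 51447 and 44545 in the epithelial cells of Progesterone 1, 2 and 3 and 43850 in Placebo 2, against 20133, 13623 and 12310 in macrophages of the progesterone libraries and 20611 and 12916 in those of Placebo 1 and 2. The macrophage share was above the epithelial share in each of the 4 libraries that held both, in Placebo 2 with 1 cell in each class. No pDC had an Ifnb1 UMI, and the alpha interferon gene Ifna1 had 0 UMIs in macrophages, epithelial cells, pDCs, T cells and NK cells. Ifng, the interferon gamma gene, had 149, 0 and 6 UMIs in T cells of Progesterone 1, 2 and 3, against 143 and 2 in Placebo 1 and 2, and 203 UMIs in NK cells of Progesterone 1, against 225 and 10 in Placebo 1 and 2.

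In epithelial cells most members were lower with progesterone, and a few regulators were higher. Of 30 members tested, 18 fell, 5 rose and 7 did not pass, where 26.1% of the 16397 genes tested fell and 25.1% rose (edgeR). DESeq2 called 13 of these 23 in the same direction, 11 lower and 2 higher. Of the members that fell by edgeR, Usp18, Oasl1, Ifit1, Gbp2, Ifi204, Ifi44 and Parp14 did not pass by DESeq2. The median log2 ratio was -0.74 over the members and 0.01 over all genes. This comparison sets Progesterone 2 and 3 against Placebo 2 alone, since Progesterone 1 had no placebo epithelium in its batch and adds nothing to the estimate. Its p-values take their spread from Progesterone 2 and 3 alone, and treatment and a difference between single tumours cannot be told apart in it.

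All 5 OAS members fell by edgeR, of which Oasl1 did not pass by DESeq2. Oas3 had 0.771, 1.05 and 1.4998 CPM in Progesterone 1, 2 and 3 and 6.63 CPM in Placebo 2 (log2 ratio -2.53, SE 0.19, edgeR adjusted p = 3.03e-10). Oas1a had 5.78, 2.73 and 2.63 CPM in the progesterone libraries and 10.3 CPM in Placebo 2 (-2.08, SE 0.14, edgeR adjusted p = 1.51e-13). Both were lower in all 3 progesterone libraries, and Oas2, Oasl2 and Oasl1 had log2 ratios of -1.41, -1.07 and -0.99. Of the RNA sensors, Ifih1 had 7.33, 6.03 and 6.68 CPM in the progesterone libraries and 26.6 CPM in Placebo 2 (-2.21, SE 0.11, edgeR adjusted p = 5.96e-17). Dhx58, which encodes the regulatory sensor LGP2, had 1.93, 0.797 and 0.832 CPM and 4.99 CPM in Placebo 2 (-2.76, SE 0.19, edgeR adjusted p = 3.54e-13). The third sensor, Ddx58, did not pass (0.18).

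In the ubiquitin-like group 3 of 3 fell by edgeR, of which Usp18 did not pass by DESeq2. Isg15 had 7.33, 6.81 and 6.44 CPM in Progesterone 1, 2 and 3 and 14.3 CPM in Placebo 2 (log2 ratio -1.25, SE 0.12, edgeR adjusted p = 2.37e-10). The E3 ligase gene Trim30a (-1.37) and Usp18 (-0.56) also fell. Bst2 had 73.6, 79.9 and 83.8 CPM in the progesterone libraries and 134 CPM in Placebo 2 (-0.85, SE 0.09, edgeR adjusted p = 1.99e-09). No progesterone library reached the Placebo 2 level of Isg15 or Bst2. Of the IFIT genes, which bind foreign RNA, Ifit1 had 0.386, 0.384 and 0.485 CPM in the progesterone libraries and 1.29 CPM in Placebo 2 (-1.72, SE 0.28, edgeR adjusted p = 6.24e-06). Ifit3 had 0, 5 and 11 UMIs in the progesterone libraries and 18 UMIs in Placebo 2, and did not pass (-1.34, edgeR adjusted p = 0.0822).

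Further members that fell were Gbp2, at 13.5, 16.3 and 17.5 CPM in Progesterone 1, 2 and 3 and 20.7 CPM in Placebo 2 (log2 ratio -0.44, edgeR adjusted p = 0.00046), and Ifi204 (-0.95), Xaf1 (-0.63) and Parp14 (-0.38). Ifi27l2a had 8.48, 0.768 and 0.445 CPM in the progesterone libraries and 1.78 CPM in Placebo 2 (-1.69, SE 0.29, edgeR adjusted p = 0.000128). The level in Progesterone 1 was above that of Placebo 2, so the groups overlapped; its share of possible macrophage RNA is given above. Ifi44, an antiviral gene of unclear mechanism, rested on 9, 7 and 0 UMIs in the progesterone libraries and 24 UMIs in Placebo 2 (-2.93, SE 0.84, edgeR adjusted p = 0.0118).

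The members that rose were 3 of the 4 regulators and 2 antiviral effectors, of which Irf1 and Rsad2 also passed by DESeq2 and Irf9, Stat2 and Mx1 did not. Irf1 had 65.9, 68.5 and 79.8 CPM in Progesterone 1, 2 and 3 and 39.6 CPM in Placebo 2 (log2 ratio 0.76, SE 0.10, edgeR adjusted p = 4.42e-07). Irf9 had 22.4, 15.2 and 18.1 CPM in the progesterone libraries and 11.8 CPM in Placebo 2 (0.35, SE 0.11, edgeR adjusted p = 0.0114), and Stat2 had 37.0, 25.6 and 27.6 CPM and 19.6 CPM in Placebo 2 (0.30, SE 0.10, edgeR adjusted p = 0.0104). For all 3, every progesterone library was above Placebo 2. Irf7 had 3.08, 2.61 and 2.63 CPM in the progesterone libraries and 2.58 CPM in Placebo 2 and did not pass (-0.12, SE 0.18, edgeR adjusted p = 0.609).

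Rsad2, the antiviral enzyme viperin, had 1.16, 3.97 and 5.75 CPM in Progesterone 1, 2 and 3 and 0.942 CPM in Placebo 2 (log2 ratio 2.22, SE 0.24, edgeR adjusted p = 2.23e-06). Mx1, an antiviral GTPase, had 1.16, 1.44 and 1.19 CPM in the progesterone libraries and 0.327 CPM in Placebo 2 (1.86, SE 0.30, edgeR adjusted p = 6.82e-06). Both were higher in Progesterone 2 and 3, while in Progesterone 1 each rested on 3 UMIs, and there macrophage RNA would amount to at least 50% of Rsad2.

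**Figure D3:**
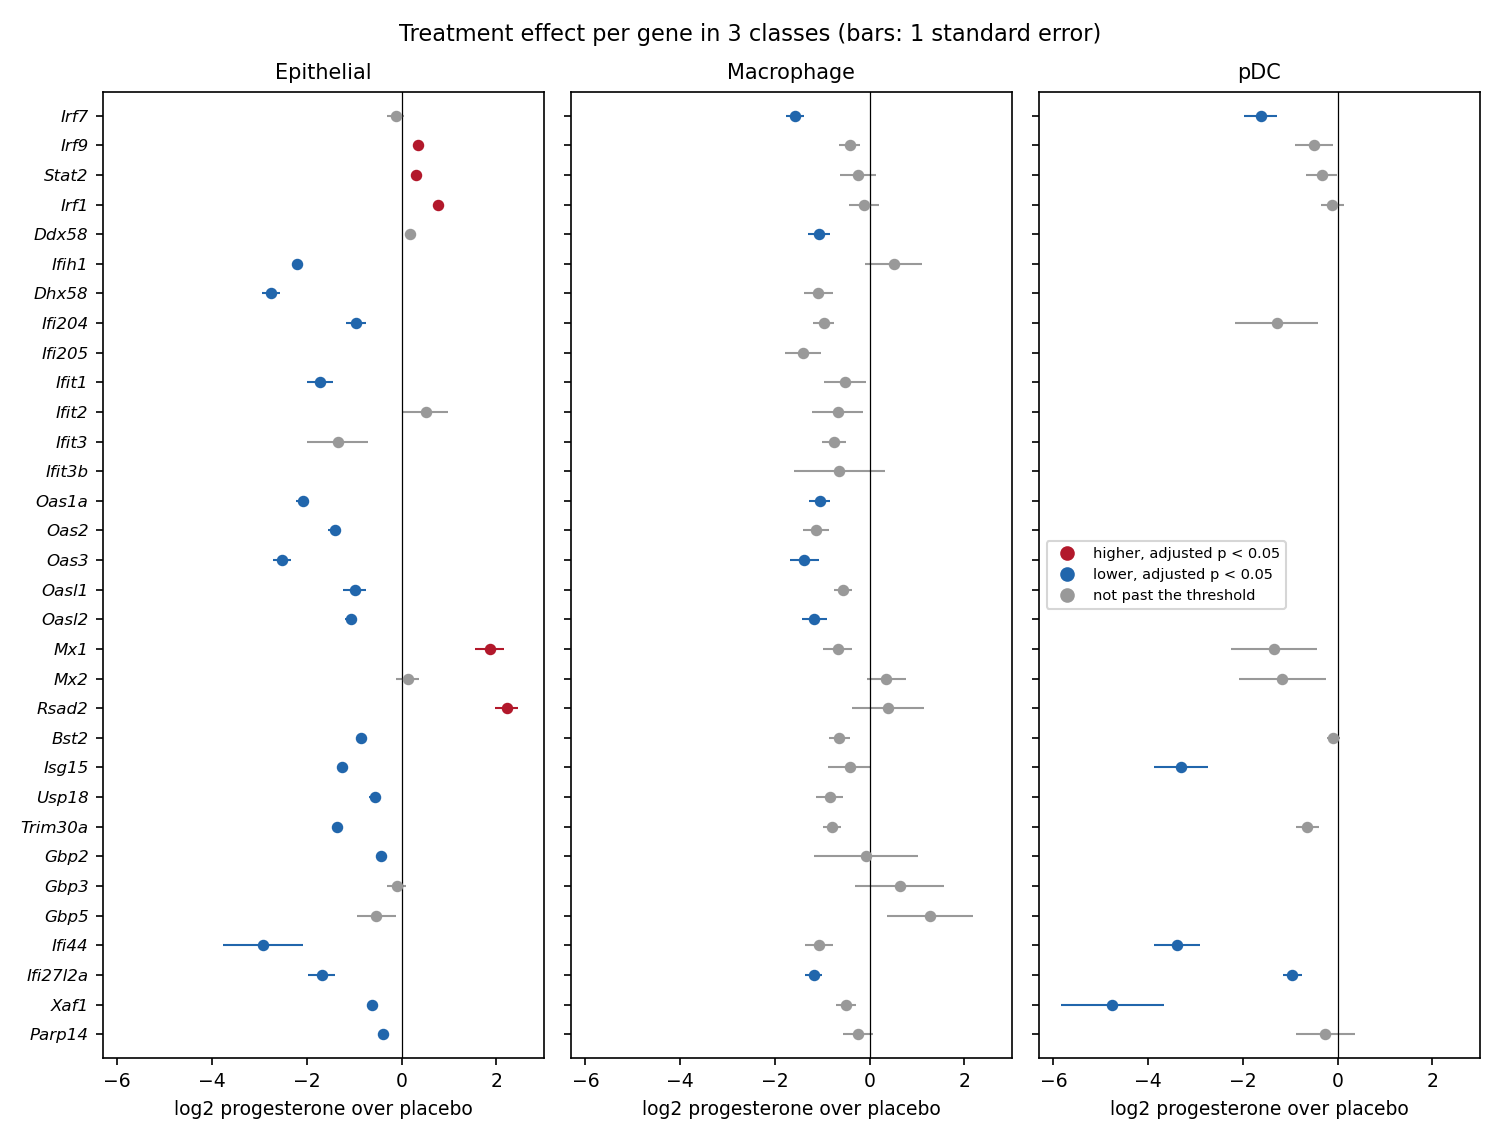
Log2 ratio of progesterone over placebo for each member tested in epithelial cells, macrophages and pDCs, with 1 standard error as a bar and colour where the edgeR adjusted p was under 0.05. In epithelial cells the OAS members lie left of 0 and Irf1, Irf9 and Stat2 right of it, and in macrophages Irf7 lies at -1.58.

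Different clusters held the epithelium of the placebo and progesterone tumours. Cluster 1, led by Dcpp1, Gcg and Krt17, held 0, 11 and 4 cells of Progesterone 1, 2 and 3 and 2345 of the 2888 epithelial cells of Placebo 2, and cluster 15, led by histone genes, held 0, 1 and 1 cells and 426 cells of Placebo 2. Cluster 2, led by Calca and Defb1, held 11, 1063 and 1012 cells of Progesterone 1, 2 and 3 and 33 cells of Placebo 2. Cluster 3, led by Ntm and Nrxn3, held 7, 937 and 1084 cells of the progesterone libraries and 34 cells of Placebo 2. Within cluster 2 the summed member level was 388, 324 and 345 CPM in Progesterone 1, 2 and 3 and 295 CPM in Placebo 2, and within cluster 3 it was 361 and 376 CPM in Progesterone 2 and 3 and 319 CPM in Placebo 2. The progesterone libraries were thus above Placebo 2 within both clusters, the reverse of the class as a whole. Placebo 2 was higher in clusters 1 and 27 and lower in cluster 6. Each of these clusters, 2 and 3 included, held few cells on at least 1 side. Cluster 1 held 334 CPM in Progesterone 2 (11 cells) and 460.4 CPM in Placebo 2, and cluster 27 held 449 and 308 CPM in Progesterone 1 and 2 (13 and 11 cells) and 810.4 CPM in Placebo 2 (35 cells). Cluster 6 held 335, 430.3 and 440.4 CPM in Progesterone 1, 2 and 3 and 306 CPM in Placebo 2 (11 cells).

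Within cluster 2, fitted after the data were seen, 1 of 25 tested members rose and 1 fell, where 7.55% of 13928 genes rose and 6.19% fell, and the median was 0.13 over the members and 0.05 over all genes. Irf1 was the one that rose, at 68.3, 57.9 and 67.1 CPM in Progesterone 1, 2 and 3 and 37.4 CPM in Placebo 2 (log2 ratio 0.78, edgeR adjusted p = 0.0113), and Trim30a fell (-0.88, edgeR adjusted p = 0.0289). In cluster 3, 3 of 27 rose and 0 fell, where 7.16% of genes rose and 6.61% fell. These were Irf1 (0.83), Usp18 (1.45) and Rsad2, the last with 0 UMIs in Placebo 2. Irf1 was higher with progesterone in the class and in both clusters, while the OAS genes, Isg15, Ifih1 and Bst2 passed in the class and in neither cluster. In cluster 6, led by hypoxia genes such as Ndrg1 and Bnip3, 1 of 26 rose (Gbp2, on 3 UMIs in Placebo 2) and 0 fell, where 1.16% of genes rose and 1.28% fell (2.45% in all), with 11 cells of Placebo 2.

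**Figure D4:**
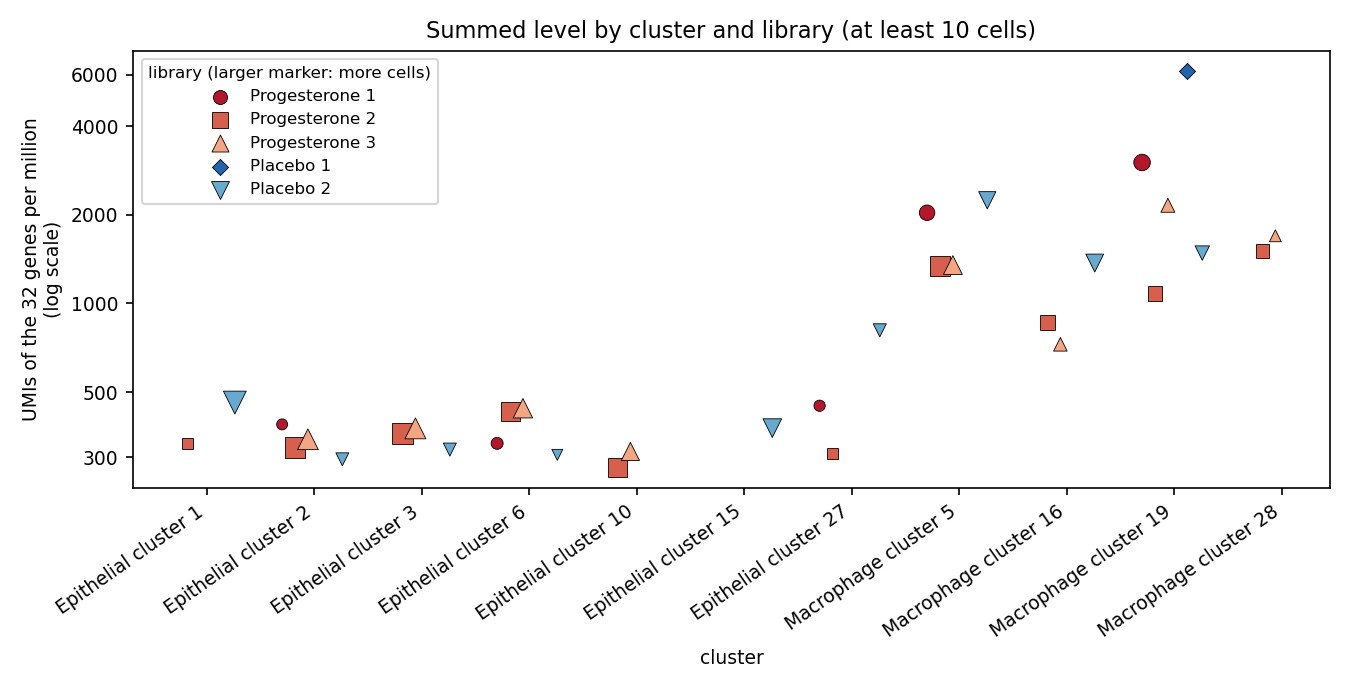
Summed member level in CPM by cluster and library for the epithelial and macrophage clusters, progesterone left of placebo. In epithelial clusters 2 and 3 the progesterone points lie above Placebo 2, and in the Apoe and C1q macrophage cluster they lie at 1338 to 2035 CPM, below Placebo 2 at 2244 CPM.

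In pDCs the members that passed were all lower with progesterone. Of 14 members tested, 5 fell and 0 rose, where 1.01% of 7405 genes fell and 0.567% rose, 1.58% in all (edgeR), and 6 had an unadjusted p under 0.05. The median was -1.06 over the members tested and 0.01 over all genes, but a member could pass the filter on low counts through Placebo 2 alone, so this count and median are no support. By DESeq2 0 of the 14 passed. As in the epithelium, Placebo 2 was the only placebo library, with 47 pDCs against 46 and 42 in Progesterone 2 and 3, and Progesterone 1 (27 cells) had no partner in its batch.

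Isg15 had 7, 5 and 1 UMIs in pDCs of Progesterone 1, 2 and 3 and 37 UMIs in Placebo 2, which are 13.0, 9.23 and 1.94 CPM and 58.2 CPM (log2 ratio -3.30, SE 0.57, edgeR adjusted p = 3.05e-06). Irf7, which pDCs are known to hold ready at a high level, had 63.1, 36.9 and 50.5 CPM in the progesterone libraries and 135 CPM in Placebo 2 (-1.62, SE 0.35, edgeR adjusted p = 0.000553). Neither gene overlapped between the groups. Ifi44 had 87.3, 12.9 and 3.89 CPM in the progesterone libraries and 91.2 CPM in Placebo 2 (-3.38, SE 0.48, edgeR adjusted p = 2.38e-09), and Ifi27l2a had 419.6, 240.0 and 214 CPM and 442 CPM in Placebo 2 (-0.96, SE 0.21, edgeR adjusted p = 0.000653). For both, Progesterone 1 lay close to Placebo 2 and Progesterone 2 and 3 far below. Xaf1, a pro-apoptotic gene, rested on 12, 1 and 0 UMIs in the progesterone libraries and 20 UMIs in Placebo 2 (-4.76, SE 1.09, edgeR adjusted p = 0.00172), and it did not pass without Progesterone 1.

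Bst2, a surface marker of mouse pDCs, had 1832, 2691 and 3270 CPM in Progesterone 1, 2 and 3 and 3186 CPM in Placebo 2 and did not pass (log2 ratio -0.09, SE 0.14, edgeR adjusted p = 0.915). Irf1 had 182, 185 and 142 CPM in the progesterone libraries and 178 CPM in Placebo 2, Irf9 had 66.8, 31.4 and 50.5 CPM and 58.2 CPM in Placebo 2, and Stat2 had 81.7, 68.3 and 93.3 CPM and 102 CPM in Placebo 2. None of these passed (edgeR adjusted p = 0.951, 0.799 and 0.850). Ifit3 had 1 UMI and Gbp2 3 UMIs in Placebo 2 and 0 in the progesterone libraries, so neither was tested. The summed pDC markers were 10122, 8777 and 8596 CPM in Progesterone 1, 2 and 3 and 7808 CPM in Placebo 2.

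**Figure D5:**
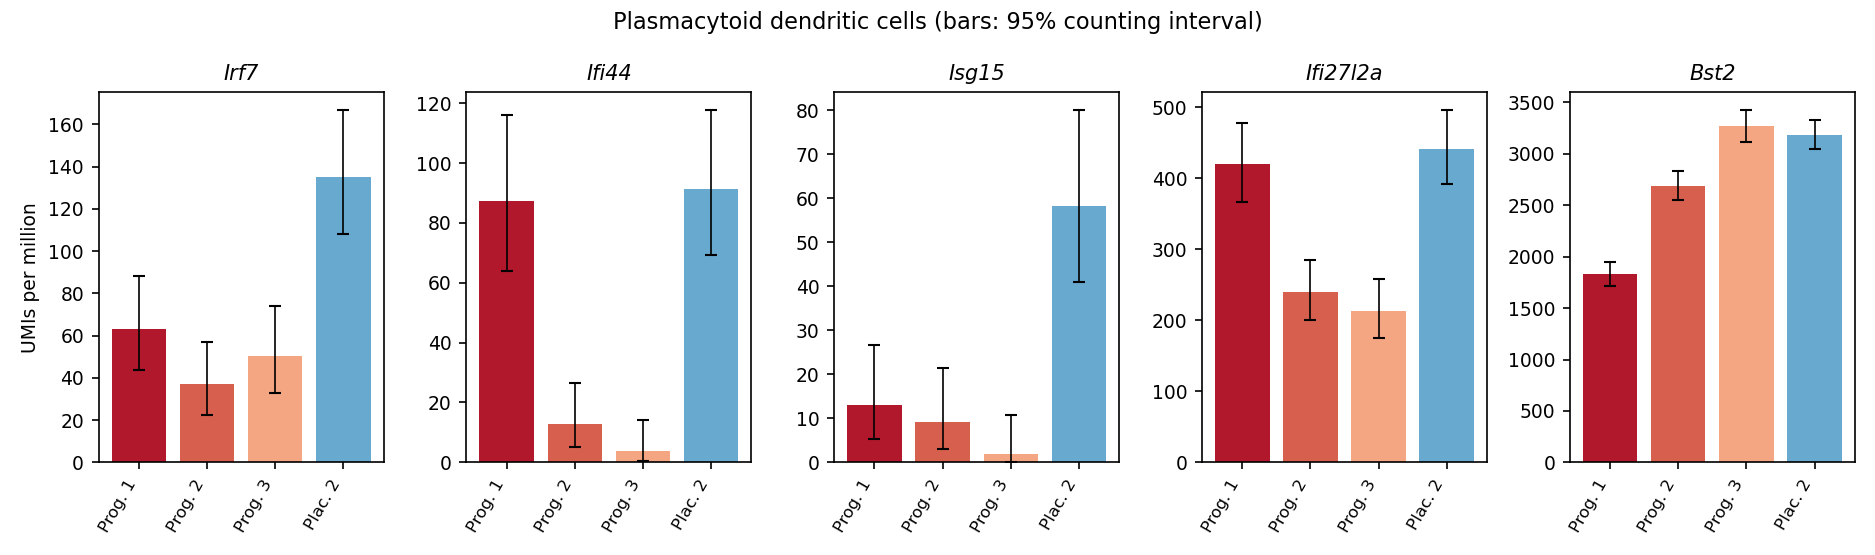
CPM of Irf7, Ifi44, Isg15, Ifi27l2a and Bst2 in pDCs, with 1 bar per library and 95% counting intervals, progesterone left of placebo. Isg15 is at 13.0, 9.23 and 1.94 CPM with progesterone and 58.2 CPM in Placebo 2, while Bst2 overlaps between the groups.

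In fibroblasts 1 of 24 tested members rose and 0 fell, where 2.86% of 11405 genes rose and 1.81% fell, 4.66% in all (edgeR), 3 members had an unadjusted p under 0.05, and 0 passed by DESeq2. Irf1 was again the member that rose, at 65.9 and 68.7 CPM in Progesterone 2 and 3 and 42.4 CPM in Placebo 2 (log2 ratio 0.85, SE 0.21, edgeR adjusted p = 0.0272, DESeq2 adjusted p = 0.576). Without a call, 25 of 32 members lay below Placebo 2 in both progesterone libraries, as did 51.4% of the 16742 genes with a UMI in fibroblasts. Among these Isg15 had 12.5 and 38.4 CPM in Progesterone 2 and 3 and 46.0 CPM in Placebo 2, Bst2 had 45.7 and 73.1 CPM and 96.3 CPM, and Ifit3 had 0.593 and 0.673 CPM and 4.53 CPM. Irf7 had 5.34 and 6.40 CPM in Progesterone 2 and 3 and 9.30 CPM in Placebo 2, and Ifi27l2a had 62.3 and 79.5 CPM and 82.1 CPM. Irf9 (7.12 and 11.1 CPM, and 14.2 CPM in Placebo 2), Stat2 (16.0 and 19.5 CPM, and 20.5 CPM) and Gbp2 (9.49 and 8.08 CPM, and 10.4 CPM) differed by smaller amounts. Macrophage markers stood in fibroblasts at 6.42% and 9.51% of their macrophage level in Progesterone 2 and 3 and at 8.30% in Placebo 2. The part of macrophage RNA in these fibroblast values was not tested.

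Neutrophils were compared in batch 1 only, Progesterone 1 with 338 cells against Placebo 1 with 11, with the spread taken from Progesterone 2 and 3. Of the UMIs of the Placebo 1 neutrophils, 49.6% lay in 1 cell and 87.9% in 3 cells. Of 12 members tested, 3 rose and 2 fell, where 12.9% of 4097 genes rose and 13.0% fell (edgeR), and DESeq2 called Rsad2 alone of these 5. Rsad2 and Ifit2 had 0 UMIs in Placebo 1 and passed the filter on low counts only through the progesterone libraries, so the count is no support. Rsad2 had 547, 14 and 1 UMIs in Progesterone 1, 2 and 3 and 0 UMIs in Placebo 1, at least 28.9-fold higher in Progesterone 1 against a floor of 3 UMIs in Placebo 1. Ifit2, an RNA-binding antiviral gene, had 118, 0 and 0 UMIs in the progesterone libraries and 0 in Placebo 1, so it was present in Progesterone 1 alone. Oasl1, a relative of the OAS enzymes that restrains Irf7 translation in mice, had 171, 38.0 and 27.9 CPM in the progesterone libraries and 36.5 CPM in Placebo 1 (log2 ratio 2.14, SE 0.82, edgeR adjusted p = 0.0376).

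Bst2 had 42.5, 12.7 and 27.9 CPM in neutrophils of Progesterone 1, 2 and 3 and 305 CPM in Placebo 1 (log2 ratio -2.91, SE 0.75, edgeR adjusted p = 0.00147), and Ifi27l2a had 80.5, 38.0 and 41.8 CPM and 345 CPM (-2.17, SE 0.67, edgeR adjusted p = 0.00862). Both were lower in all 3 progesterone libraries, with 1 and 2 UMIs of Bst2 and 3 and 3 UMIs of Ifi27l2a in Progesterone 2 and 3. Isg15 had 191, 139 and 209 CPM in the progesterone libraries and 97.5 CPM in Placebo 1, and Irf1 had 142, 329.7 and 209 CPM and 44.7 CPM, neither past the threshold (edgeR adjusted p = 0.359 and 0.115). Irf7 had 92, 3 and 1 UMIs in the progesterone libraries and 12 UMIs in Placebo 1 and was not tested. The summed neutrophil markers were 57679, 40530 and 56897 CPM in Progesterone 1, 2 and 3 and 24930 CPM in Placebo 1, and the summed monocyte markers 1804, 393 and 335 CPM and 3947 CPM in Placebo 1. The part of monocyte RNA in these values was not tested.

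In T cells 0 of 7 tested members passed, where 0.0189% of 5286 genes passed, all of them higher (edgeR), 0 had an unadjusted p under 0.05, and 0 passed by DESeq2. Without Placebo 2, 22 members could be tested and 3 rose, Ifit3, Mx2 and Xaf1, where 3.47% of genes rose. Ifi27l2a had 271, 219.9 and 280.0 CPM in Progesterone 1, 2 and 3, against 146 and 186 CPM in Placebo 1 and 2, so the groups did not overlap, but it did not pass (log2 ratio 0.58, SE 0.30, edgeR adjusted p = 0.687). Irf1 had 323, 147 and 151 CPM in the progesterone libraries, against 273 and 213 CPM in Placebo 1 and 2, and Bst2 had 44.5, 73.3 and 43.1 CPM, against 31.6 and 79.8 CPM. Both overlapped. Isg15 had 39, 1 and 3 UMIs in T cells of Progesterone 1, 2 and 3, against 214 and 4 UMIs in Placebo 1 and 2, and Irf7 had 48, 2 and 0 UMIs, against 409 and 2, too few in batch 2 for a comparison of levels. Gbp2 had 20.6, 10.5 and 0 CPM, against 15.6 and 53.2 CPM, and Stat2 had 24.4, 10.5 and 21.5 CPM, against 17.2 and 35.5 CPM, with groups that overlapped. Gbp2 and Stat2 rested on 1 UMI each in Progesterone 2. In Progesterone 3 Stat2 rested on 1 UMI and Bst2 on 2 UMIs. Epithelial markers summed to 128, 2231 and 2068 CPM in T cells of Progesterone 1, 2 and 3, against 12.3 and 1384 CPM in Placebo 1 and 2.

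In B cells 0 of 11 tested members passed, where 0.694% of 7497 genes rose and 0.0934% fell, 0.787% in all (edgeR), 2 had an unadjusted p under 0.05, and 0 passed by DESeq2. Ifi27l2a had 105 and 106 CPM in Progesterone 1 and 2, against 77.3 and 98.4 CPM in Placebo 1 and 2, and Irf1 had 99.3 and 79.4 CPM, against 105 and 105 CPM. Irf9 had 19.9 and 13.2 CPM in Progesterone 1 and 2, the latter on 1 UMI, against 26.0 and 31.7 CPM in Placebo 1 and 2. Their log2 ratios were 0.45 (SE 0.37), -0.05 (SE 0.37) and -0.40 (SE 0.61). Isg15 had 8 and 0 UMIs in Progesterone 1 and 2, against 4 and 5 in Placebo 1 and 2, and Ifit3 had 3 and 0, against 0 and 0, so levels this low could not be compared.

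A call in 1 class and none in another does not show a difference, so 3 differences between classes were tested in edgeR, with library, class and the class difference of each batch in the model. Between macrophages and T cells, 4 of 32 members had a lower ratio in macrophages and 0 a higher one, where 1.16% of 12204 genes were lower and 0.467% higher, 1.63% in all. These were Oas1a, Mx1, Ifi44 and Ifi27l2a, and 0 passed without Placebo 1 or without Progesterone 1. Oas1a, Mx1 and Ifi44 had not been tested in T cells alone, and Oas1a and Mx1 had 0 UMIs in T cells of every batch 2 library. Between epithelial cells and macrophages, 14 of 32 members had a lower ratio in the epithelium and 5 a higher one, where 11.7% of 14502 genes were lower and 11.2% higher. Irf7 was among the 5, with a difference of 1.48 (epithelial minus macrophage, log2), and Ifih1 was the furthest of the 14, at -3.45. That fit held 4 libraries, without Placebo 1, so its macrophage ratio is the one within batch 2. Between epithelial and T cells 0 of 30 passed, where 0.166% of 12672 genes were higher and 0.0789% lower, 0.245% in all, and 2 had an unadjusted p under 0.05. DESeq2 was not run for these differences.

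The receptor genes differed in level between classes. Ifnar1 had 23.1, 22.8 and 23.6 CPM in epithelial cells of Progesterone 1, 2 and 3 and 23.9 CPM in Placebo 2, and 205, 216 and 199 CPM in macrophages, against 227 and 154 CPM in Placebo 1 and 2. In pDCs it had 449, 585 and 666 CPM in the progesterone libraries and 561 CPM in Placebo 2. Ifnar1 passed the test in none of these 3 classes. Ifnlr1, the specific chain of the lambda interferon receptor, had 4.63, 10.4 and 14.3 CPM in epithelial cells of Progesterone 1, 2 and 3 and 12.6 CPM in Placebo 2, at most 2.24 CPM in macrophages and 0 UMIs in pDCs. Of the 6 receptor genes, 4 fell and 0 rose in the epithelium, where 26.1% of all genes fell and 25.1% rose: Ifngr2 (-0.94), Il10rb (-0.94), Ifnar2 (-0.77) and Ifngr1 (-0.46), and of 5 tested in macrophages 0 passed.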

How the data were processed

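Tumour cells were profiled by droplet single-cell RNA sequencing (10x, 3′ ends). The deposited matrices hold raw UMI counts per gene and barcode, made by the authors with Cell Ranger 8.0.1, per the file headers, and 7.0.0 with build mm10, per the submitters' processing notes. A barcode needed 250 detected genes, scrublet in scanpy 1.11.5 marked the doublets left out (expected rate 0.8% per 1000 barcodes), and cells were clustered (2000 variable genes without 135 interferon genes, 30 principal components, 20 neighbours, Leiden resolution 1, leidenalg 0.10.2) and named from marker lists. Clusters of low median depth with no leading marker stayed unnamed.

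UMIs were summed per class and library where the class had at least 10 cells. Progesterone was compared with placebo by edgeR 4.0.16 (quasi-likelihood, TMM scaling, filterByExpr, batch as a covariate, R 4.3.3) over all genes, with Benjamini-Hochberg adjustment and a threshold of 0.05. DESeq2 1.42.0, RLE scaling, no filter on low counts, other cell filters, thinned UMIs and leaving out each library were alternatives. The code was tested on simulated data. Batch pairs the libraries, from the sample titles, and replicate numbers were not otherwise used. Intervals (95% Poisson) and floors (3 UMIs) cover counting error only.

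The members, marker lists and other gene lists were chosen with earlier results of these data known. Values are given in every library for Isg15, Irf7, Irf9, Stat2, Irf1, Bst2, Ifit3, Ifi27l2a and Gbp2 where a class had UMIs to compare, and in each tested class for members past the threshold, or for the 8 with the largest log2 ratio where more passed. A further gene of the naming rule is not reported here. Cluster fits were added after the data were seen.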

Additional observations from a re-analysis of the deposited data

Results flagged for a closer look

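For 19 members the effect of progesterone differed between epithelial cells and macrophages by edgeR's test of the difference itself (epithelial minus macrophage, log2, adjusted p under 0.05). It was higher in the epithelium for Mx1 (2.13), Irf7 (1.48), Ddx58 (1.20), Irf9 (0.66) and Irf1 (0.44). It was lower in the epithelium for Ifih1 (-3.45), Gbp5 (-2.39), Ifi44 (-2.30), Dhx58 (-1.93), Gbp3 (-1.57), Ifit1 (-1.49), Isg15 (-1.49), Gbp2 (-1.28), Oas1a (-1.13), Ifi27l2a (-0.66), Trim30a (-0.61), Parp14 (-0.59), Oasl1 (-0.51) and Bst2 (-0.48). This difference rests on Placebo 2 as the only placebo library with epithelium, and 11.2% of genes were higher and 11.7% lower. Its macrophage side is therefore the ratio within batch 2 and not the class ratio given above. In batch 1 the macrophage ratio had the opposite sign for Ifih1, Gbp2, Gbp3, Gbp5, Isg15, Irf1 and Parp14.

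For 4 members the effect differed between macrophages and T cells (macrophage minus T, log2): Oas1a (-4.45), Mx1 (-4.04), Ifi44 (-3.78) and Ifi27l2a (-1.55). In T cells Oas1a had 14 UMIs in Progesterone 1 and 13 in Placebo 1, and Mx1 had 13 and 17. Both had 0 UMIs in T cells of Progesterone 2, Progesterone 3 and Placebo 2, so batch 2 gave no T-cell ratio for them. T cells of Progesterone 2 and 3 and Placebo 2 numbered 23, 16 and 71, and 0 members passed without Placebo 1.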

How the results depend on the processing

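Of the counts and summed levels, 99 values under an alternative stayed within 1.5 times the reported one or within 1 SD of it and 41 did not. Of the named genes, 664 values kept the call or stayed without one, 114 kept the direction and lost the call, 12 gained a call and 15 reversed. The 664 include changes of sign in genes that stayed without a call. Among these were Isg15 in macrophages (log2 ratio -1.45 to 0.28 over the alternatives) and Irf7 in the epithelium (-0.19 to 0.29). Without the replicate block (batch), members past the threshold numbered 5 in the epithelium (23 with it), 0 in macrophages (6), 0 in pDCs (5), 3 in neutrophils (5), 0 for epithelial minus macrophage (19) and 0 for macrophage minus T (4), and Ifi27l2a (0.13) and Ifi44 (1.52) reversed in the epithelium. By DESeq2 13 epithelial, 0 fibroblast, 0 pDC and 1 neutrophil members passed. With thinned UMIs 5 epithelial, 2 macrophage, 0 pDC and 2 neutrophil members passed and Ifi27l2a reversed in the epithelium (0.42). In macrophages 18 members passed with at least 20 cells, 17 with batch 2 alone, 13 with no filter on low counts, 3 with Progesterone 2 and 3 summed, and 3 to 20 when 1 library was left out. Gbp2 there was -2.80 to 0.88 when 1 library was left out and 0.88 with at least 20 cells, with batch 2 alone, without Placebo 1 and without Progesterone 1. Leaving out 1 library gave 0 to 3 members in T cells and 0 to 5 for macrophage minus T. Without the depth rule for cluster names 14 epithelial members passed, and without doublet removal 0 pDC members.

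Mean summed levels moved for fibroblasts with progesterone (522 CPM as reported) to 730 CPM without doublet removal and 717 CPM without the depth rule, and without that rule T cells held 1179 CPM with progesterone and 1050 CPM with placebo. Thinned to 1000 UMIs, the richest 10% of cells held 49.8% in epithelium and 57.7% in fibroblasts with progesterone and 48.9% in B cells with placebo. In single clusters, an alternative chosen after seeing the data, 2, 3 and 1 members passed in epithelial clusters 2, 3 and 6, and 17, 3 and 1 in macrophage clusters 5, 16 and 19. Reversed in epithelial clusters were Bst2 (0.32, 0.090 and 0.50 in clusters 2, 3 and 6), Gbp2 (0.83 and 0.41 in clusters 2 and 3, and 2.12 in cluster 6 on 3 placebo UMIs), Isg15 (0.40 in cluster 3), Mx1 (-1.36 in cluster 2) and Stat2 (-0.38 in cluster 6). The cause of these changes was not tested. The remaining fits that leave out 1 library, and the sum of Progesterone 2 and 3, could not be fitted in epithelium, fibroblasts, pDCs, neutrophils or B cells, thinned UMIs gave no value in B cells, and few cells limit pDCs, neutrophils and batch 2 T cells.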

Other observations

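Other interferon genes of the epithelium, from lists made for this work, mostly fell as well. Of 51 further interferon-stimulated genes tested, 31 fell and 2 rose (edgeR), where 26.1% of all genes fell and 25.1% rose, and the median log2 ratio was -0.75 (0.01 over all genes). Iigp1, an immunity-related GTPase, had 2.70, 1.35 and 1.08 CPM in Progesterone 1, 2 and 3 and 19.0 CPM in Placebo 2 (log2 ratio -4.10). Lgals3bp, a secreted glycoprotein, had 22.7, 17.9 and 16.5 CPM in the progesterone libraries and 71.5 CPM in Placebo 2 (-2.20). Tmem173, which encodes the DNA-response adaptor STING, had 28.1, 17.7 and 16.0 CPM in the progesterone libraries and 72.3 CPM in Placebo 2 (-2.24). All 3 were lower in every progesterone library. Of 21 interferon ligand genes, 4 were tested in the epithelium, of which 2 rose and 2 fell, beside 25.1% and 26.1% of all genes. The lambda interferon genes were low and rose, Ifnl3 with 0, 57 and 53 UMIs in Progesterone 1, 2 and 3 and 14 UMIs in Placebo 2 and Ifnl2 with 0, 36 and 27 UMIs and 5 UMIs in Placebo 2. Reads of these near-identical genes may be split, so their values are uncertain.

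In macrophages 3 of 51 further interferon-stimulated genes fell and 0 rose, Samd9l (-1.48), Trim30d (-1.38) and Slfn5 (-0.98), where 0.737% of all genes fell and 0.576% rose, with a median of -0.51 (0.04 over all genes). Of 16 sensing and signalling genes and 5 negative regulators, 0 passed in macrophages.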
